A study of Mus musculus with 6 samples.

Results

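Translation initiation factors are the proteins that bring the ribosome, the initiator Met-tRNA and the start codon of an mRNA together. The small ribosomal subunit first takes up Met-tRNA, carried by the GTPase eIF2, along with eIF1, eIF1A, eIF5 and the large eIF3 complex. The cap-binding complex eIF4F, built from the cap binder eIF4E, the scaffold eIF4G and the helicase eIF4A, recruits this assembly to the mRNA. Phosphorylation of eIF2 by one of its kinases stops its recycling by eIF2B and lowers initiation, which is the entry to the integrated stress response.

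The genes described here are the protein-coding genes with a symbol from Eif1 to Eif6, the eIF2 kinases included and the Eif4ebp genes and the Y-linked Eif2s3y left out, that had at least 20 counts in 3 or more libraries. The rule gave 50 genes out of 30323 gene IDs in the table. One further gene, Eif4e1b, which encodes a close relative of eIF4E, matched by name but held 12, 13 and 10 counts in the MCKO libraries and 5, 8 and 11 in the control libraries, and was left out by the count rule. All 50 members passed the separate low-count filter of the test, and with 50 in place of 20 counts the rule still gave 50 genes.

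RNA came from whole mouse hearts at embryonic day 9.5, when the heart tube loops, and compares hearts with a knockout of the small GTPase gene Cdc42 in heart muscle (MCKO, genotype label CDC-42 KO) with control hearts (genotype label C57BL/6 ctrl). Each group had 3 libraries. The sources used here do not give the Cre driver, the deleted exon or the strain of the MCKO embryos, so strain and knockout cannot be told apart, and the labels do not tie a library to 1 heart or litter. The spread behind each p-value is that between these libraries and may be technical.

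Library totals were 23883877 to 34246477 counts in MCKO and 19256840 to 32169289 in controls, and a level is given in CPM, the counts of a gene scaled to the total of its library. Cdc42 held 248, 241 and 238 CPM in MCKO and 399, 377 and 424 CPM in controls, with a log2 fold change of -0.66 (SE 0.047, edgeR adjusted p = 2.93e-06). Of 6 heart muscle markers 4 were higher and 0 lower in MCKO, with summed levels of 20538 to 21430 CPM in MCKO and 17420 to 18794 CPM in controls. The 5 primitive red cell markers summed to 5825 to 6178 CPM in MCKO and 2871 to 3066 CPM in controls, all of them called higher. The 4 epicardial markers, all called lower, summed to 61.3 to 63.04 CPM in MCKO and 159.8 to 169 CPM in controls. Of 5 endothelial and endocardial markers 4 were called higher and 1 lower, and their summed levels were 752 to 783 CPM in MCKO and 632 to 665 CPM in controls. The 4 markers of liver bud and endoderm summed to 5.28 to 6.03 CPM in MCKO and 13.5 to 15.3 CPM in controls, with 3 called lower and 1 higher. Among them Afp averaged 0.1 CPM in MCKO and 11.4 CPM in controls, Alb was at 0 in all MCKO libraries and averaged 1 CPM in controls, and Epcam averaged 5.41 CPM in MCKO and 0.898 CPM in controls. In whole hearts, fewer cells of a type and less RNA per cell cannot be told apart, and the part of these marker differences in the results below was not tested.

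The initiation factor genes did not move as one set. Of the 50, 13 rose and 19 fell in MCKO at an edgeR adjusted p under 0.05, and 18 were not called. That is 64.0% called, against 58.4% of all 14697 tested genes. The gap depended on which genes were tested: 64.0% of the members were also called among genes with at least 50 counts in 3 libraries, where 62.9% of all genes were, and with no filter on low counts, where 39.7% were. By direction, 26.0% of the members were higher, against 29.3% of all tested genes, and 38.0% were lower, against 29.1%. The median log2 fold change was -0.04 over the members and 0.0006 over all tested genes, and the median absolute change was 0.31 in both. The MCKO and control ranges did not overlap for 13 members that were higher and 22 that were lower in MCKO, while among all tested genes the ranges were apart for 65.5%, made up of 28.3% higher and 37.2% lower. Changes were small: 28 of the 32 calls were below 0.5 on the log2 scale, and 1 member, Eif3j2, was called with at least a 2-fold change, as were 11.0% of all tested genes. Together the members took 11217, 11028 and 11212 CPM in MCKO and 12107, 11744 and 12065 CPM in controls.

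**Figure D1:**
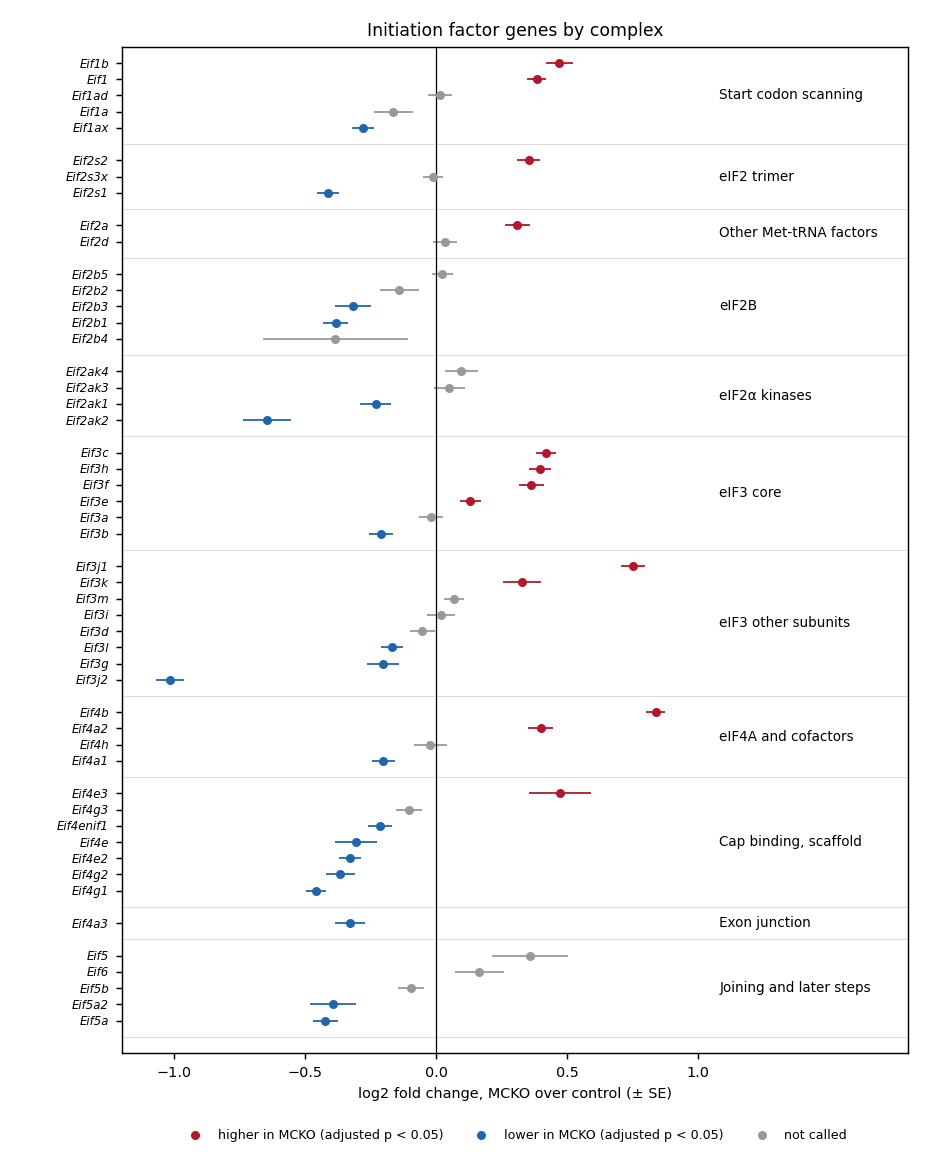
Log2 fold change (MCKO over control, with its SE) of each of the 50 initiation factor genes, grouped by complex or step, with genes called higher, called lower and not called in different colours. Most groups hold genes on both sides of 0, while 5 of the 7 cap-binding and scaffold genes lie to the left and were called lower.

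Counts by complex rest on 14 genes or fewer and are descriptions, to be read beside the 29.3% of all tested genes called higher and the 29.1% called lower. In the cap-binding and scaffold group, 5 of 7 genes fell, 1 rose and 1 was not called, and the median log2 fold change was -0.30. Eif4g1, the main scaffold that joins eIF4E, eIF4A and eIF3, lies on the plus strand of chromosome 16 at 20668313 to 20692884 in GRCm38. It held 651, 657 and 663 CPM in MCKO and 972, 938 and 920.0 CPM in controls. Every MCKO library was well below every control library, and the change was -0.46 (SE 0.038, edgeR adjusted p = 8.35e-06). Eif4g2, also called DAP5, encodes a scaffold that lacks the eIF4E-binding site and serves other modes of initiation. Its levels were 1236, 1186 and 1141 CPM in MCKO and 1586, 1486 and 1718 CPM in controls. The groups were again apart, with a change of -0.37 (SE 0.054, adjusted p = 0.000345). The third scaffold gene, Eif4g3, had a log2 fold change of -0.10 (SE 0.051, adjusted p = 0.112) and was not called, but it was called lower with library totals only (adjusted p = 0.0225) and without control replicate 2 (-0.15, adjusted p = 0.0231).

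Among the cap binders, Eif4e, the major one, and Eif4e2, a relative that represses translation (4EHP), were both lower. Eif4e2 held 90.3, 92.6 and 93.5 CPM in MCKO and 123, 117 and 122 CPM in controls, a change of -0.33 (SE 0.041, adjusted p = 0.000112). Eif4e averaged 87.9 ± 4.67 CPM in MCKO and 113 ± 13.2 CPM in controls (SD, n = 3 each), at -0.30 (SE 0.080, adjusted p = 0.0104). Eif4enif1, which carries eIF4E into the nucleus and to mRNA decay bodies, fell by 0.21 on the log2 scale (SE 0.046, adjusted p = 0.00309). Eif4e3, an atypical cap binder, rose at a low level. It had 6.28, 7.78 and 7.66 CPM in MCKO and 5.34, 5.14 and 5.78 CPM in controls, and its lowest MCKO library stood just above the highest control (0.47, SE 0.12, adjusted p = 0.00717). Its exons share 373 bases with Gm20696 on the same strand, so its count is uncertain. Summed over the 7 genes, the MCKO libraries stood at 72.4 to 75.6% of the control mean and the controls at 95.6 to 103.9%. Most of this sum was Eif4g1 and Eif4g2, which averaged 657 and 1187 of 2212 CPM in MCKO. In controls they averaged 943 and 1596 of 2990 CPM. Like all CPM here, the sums are scaled to library totals only.

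Of the 4 genes of the eIF4A helicases and their cofactors, 2 rose, 1 fell and 1 was not called. Eif4b, which encodes the cofactor that stimulates eIF4A, lies on the plus strand of chromosome 15 at 102073773 to 102097173. It held 723, 719.9 and 710.2 CPM in MCKO and 423, 410.5 and 424 CPM in controls. All 3 MCKO libraries lay far above the controls, and the log2 fold change of 0.84 (SE 0.035, adjusted p = 1.14e-07) was the largest rise among the members. Eif4h, the other cofactor, had a log2 fold change of -0.02 (SE 0.064, adjusted p = 0.782).

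The helicase genes themselves differed in direction. Eif4a2 held 521, 503 and 505 CPM in MCKO and 398, 383 and 429.7 CPM in controls, a rise of 0.40 (SE 0.047, adjusted p = 7.53e-05). Eif4a1, the more abundant of the pair, held 1065, 1045 and 1095 CPM in MCKO and 1316, 1221 and 1308 CPM in controls, a fall (-0.20, SE 0.042, adjusted p = 0.00274). The groups did not overlap for either gene. As a result Eif4a2 made up 32.8, 32.5 and 31.6% of the counts of the pair in MCKO and 23.2, 23.9 and 24.7% in controls. Per kilobase of the longest annotated transcript, the level of Eif4a1 was 602 CPM in MCKO and 722 CPM in controls, and that of Eif4a2 was 188 and 149 CPM. Eif4a3, a relative that sits in the exon junction complex left on spliced mRNA, fell. It held 123, 124 and 127 CPM in MCKO and 165, 175 and 151 CPM in controls (-0.33, SE 0.058, adjusted p = 0.00104).

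Eif4a1 has a near-identical processed pseudogene, Eif4a-ps4 on chromosome 1, so the division of reads between them is uncertain. The 1218 bases of that copy differ from the Eif4a1 transcript by 1 base, G550A, with positions counted from 1 at the 5′ end of the Eif4a1 transcript. The stretch around the difference is shown because it is the only base of the copy that differs from the gene, and the differing base is in capitals (GENCODE M21 transcripts, GRCm38).
Eif4a1: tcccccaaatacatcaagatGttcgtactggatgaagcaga
Eif4a-ps4: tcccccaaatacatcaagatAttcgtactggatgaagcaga
The copy was listed at 114, 112 and 115 CPM in MCKO and 100.2, 172 and 102 CPM in controls. In control replicate 2, where the copy was high, Eif4a1 was the lowest of the controls. Added together, the pair held 1179, 1157 and 1210 CPM in MCKO and 1416, 1392 and 1410 CPM in controls, and with its copies added Eif4a1 was still called lower (log2 fold change -0.19).

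**Figure D2:**
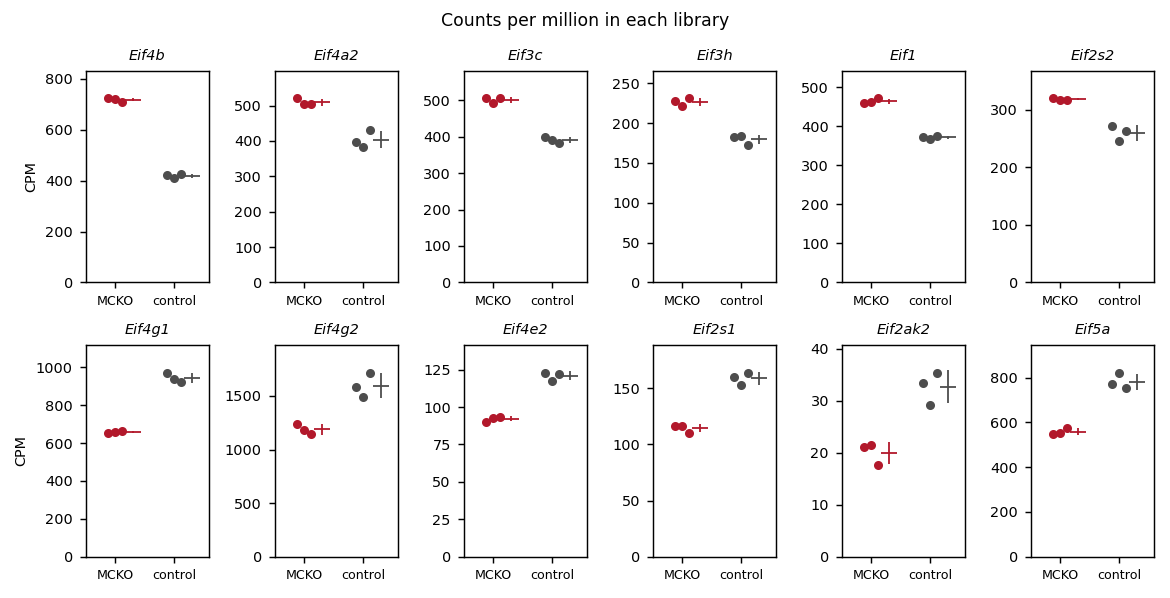
CPM of 12 initiation factor genes in each library (points, MCKO left and control right, y axes from 0), with the mean and SD beside the points (n = 3 per group). In the upper row, from Eif4b to Eif2s2, each MCKO library lies above each control library, and in the lower row, from Eif4g1 to Eif5a, each lies below.

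The subunits of eIF2, which carries Met-tRNA as a trimer, also differed from each other. Eif2s1 encodes the alpha subunit, the one that the stress kinases phosphorylate, on chromosome 12 at 78861819 to 78887010. Its levels were 116, 116 and 110.5 CPM in MCKO and 159.9, 153 and 164 CPM in controls, without overlap (-0.41, SE 0.043, adjusted p = 3.54e-05). Eif2s2, the beta subunit gene on chromosome 2 at 154871410 to 154892935, held 320.2, 318 and 317 CPM in MCKO and 272, 246 and 262 CPM in controls. Here every MCKO library was higher (0.35, SE 0.044, adjusted p = 0.00011). The X-linked gamma subunit gene Eif2s3x held 343, 334 and 329 CPM in MCKO and 351, 343 and 366 CPM in controls, which overlapped (-0.01, SE 0.039, adjusted p = 0.796). Its Y-linked counterpart Eif2s3y, whose level follows the share of male cells, held 43.8, 39.9 and 38.7 CPM in MCKO and 42.8, 39.5 and 47.3 CPM in controls (adjusted p = 0.814). Of 4 Y-linked genes looked at, Eif2s3y included, 1 was called lower in MCKO and 0 higher. The gene called was Kdm5d (-0.24, SE 0.074, adjusted p = 0.0181). Summed over the trimer, MCKO stood at 98 to 101% of the control mean and the controls at 96 to 102.6%.

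No gene of eIF2B, the complex that recharges eIF2 with GTP, was called higher. Of its 5 subunit genes 2 fell and 3 were not called. Eif2b1, the alpha subunit gene, held 44.8, 45.5 and 47.1 CPM in MCKO and 61.1, 64.3 and 61.5 CPM in controls (-0.38, SE 0.048, adjusted p = 0.000122). Eif2b3, the gamma subunit gene, held 21.2, 20.6 and 20.7 CPM in MCKO and 28.2, 24.5 and 28.4 CPM in controls (-0.32, SE 0.068, adjusted p = 0.00311). For both genes all MCKO libraries were below all controls. Eif2b5, which encodes the catalytic epsilon subunit, had a log2 fold change of 0.02 (SE 0.040, adjusted p = 0.652), and Eif2b2, the beta subunit gene, one of -0.14 (SE 0.076, adjusted p = 0.139), which became a call with library totals only (adjusted p = 0.0376) and without control replicate 3 (-0.22, adjusted p = 0.0096). Eif2b4, the delta subunit gene, varied most within groups, with 19.4, 27.7 and 33.2 CPM in MCKO and 42, 40.9 and 26.4 CPM in controls. Its groups overlapped, and its log2 fold change of -0.39 had an SE of 0.28 (adjusted p = 0.286). With 1 library left out it ran from -0.59, without control replicate 3, to -0.19, without MCKO replicate 1, and was never called. Exons of Eif2b4 overlap those of Snx17 on the opposite strand over 204 bases, and whether counting used strand is not stated. Shorter overlaps on the opposite strand were found for Eif4a2 (194 bases), Eif3m (82 bases), Eif2d (78 bases) and Eif2a (72 bases).

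Of the 4 eIF2 alpha kinases, which sense different stresses, 2 fell and none rose. Eif2ak2, which encodes PKR, the sensor of double-stranded RNA, held 21, 21.5 and 17.6 CPM in MCKO and 33.4, 29.2 and 35.4 CPM in controls. The groups were apart, and at -0.65 (SE 0.091, adjusted p = 0.000248) it was the largest fall of a member without a near-identical copy. Eif2ak1, which encodes the haem-regulated kinase HRI, held 48.6, 47.2 and 47.4 CPM in MCKO and 62.5, 53.8 and 59 CPM in controls (-0.23, SE 0.058, adjusted p = 0.00756). Exons of Eif2ak1 overlap those of Aimp2 on the opposite strand over 487 bases. Aimp2 averaged 49.4 CPM in MCKO and 52.4 CPM in controls. HRI is best known from red cell precursors. The 5 red cell markers were higher in the same MCKO libraries, and their relation to the level of Eif2ak1 was not tested. Eif2ak3, which encodes PERK, the kinase of the endoplasmic reticulum, held 24.2, 22.1 and 22.9 CPM in MCKO and 22.9, 23.2 and 23.7 CPM in controls (0.05, SE 0.060, adjusted p = 0.495). Eif2ak4, which encodes GCN2, the sensor of uncharged tRNA, held 37.6, 36.4 and 32.7 CPM in MCKO and 36.1, 34.6 and 33.7 CPM in controls (0.10, SE 0.063, adjusted p = 0.22). The ranges of both of these overlapped. These are RNA levels, and kinase activity or eIF2 phosphorylation was not measured.

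The 2 genes for factors that can bring Met-tRNA without eIF2 were Eif2a and Eif2d. Eif2a rose, with 97.1, 92.7 and 94.4 CPM in MCKO and 79, 76.4 and 83.7 CPM in controls (0.31, SE 0.047, adjusted p = 0.000388). Eif2d was close to even between the groups, at 0.03 (SE 0.046, adjusted p = 0.573).

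eIF3 is the largest initiation factor, a scaffold of many subunits on the small ribosomal subunit. Of its 14 genes 6 rose, 4 fell and 4 were not called, and the summed level of all 14 was 3182, 3132 and 3236 CPM in MCKO and 3197, 3138 and 3102 CPM in controls. The sums overlapped, while single subunits moved apart. Of the 6 genes grouped here as the core (Eif3a, Eif3b, Eif3c, Eif3e, Eif3f and Eif3h), 4 rose. That grouping was made for counting and does not set out the structure of the complex. Eif3c held 505, 492 and 505 CPM in MCKO and 398, 391 and 382 CPM in controls (0.42, SE 0.038, adjusted p = 1.39e-05). Eif3h held 227, 221 and 231 CPM in MCKO and 183, 183 and 173 CPM in controls (0.40, SE 0.043, adjusted p = 4.84e-05). Eif3f, which like Eif3h encodes a subunit with an MPN domain, held 211, 210.4 and 229.8 CPM in MCKO and 174, 179.8 and 175 CPM in controls (0.36, SE 0.047, adjusted p = 0.000154). In all 3 genes each MCKO library exceeded each control.

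The other core subunits changed less. Eif3e rose by 0.13 (SE 0.040, adjusted p = 0.0192), a call lost under the replicate block (adjusted p = 0.052), with library totals as the only scaling (adjusted p = 0.182) and without MCKO replicate 1 or 3 (adjusted p = 0.0709 and 0.0605). Eif3a, which encodes the largest subunit, stood at -0.02 on the log2 scale (SE 0.047, adjusted p = 0.74). Eif3b fell, with 254, 256 and 274 CPM in MCKO and 322, 319 and 307 CPM in controls (-0.21, SE 0.045, adjusted p = 0.00306).

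Of the eIF3 genes not grouped here as the core, the Eif3j pair aside, Eif3k rose and Eif3g and Eif3l fell. Eif3k held 129, 133 and 142 CPM in MCKO and 107, 124 and 105 CPM in controls (0.33, SE 0.071, adjusted p = 0.00353). Eif3l, whose product binds that of Eif3k in the complex, held 214, 213 and 218 CPM in MCKO and 254, 260.4 and 242 CPM in controls, the opposite direction (-0.17, SE 0.043, adjusted p = 0.00782). Eif3g held 108, 107 and 104 CPM in MCKO and 132, 135 and 116 CPM in controls (-0.20, SE 0.061, adjusted p = 0.0172), and its call was lost without MCKO replicate 2 or 3 or control replicate 1 (adjusted p = 0.0584, 0.0633 and 0.0678). Eif3d, Eif3i and Eif3m had log2 fold changes of -0.05, 0.02 and 0.07, none of them called.

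Per kilobase of transcript, the 12 subunit genes other than the Eif3j pair lay within a narrow band. In MCKO they ran from 86.4 ± 4.35 CPM for Eif3f to 174.8 ± 4 CPM for Eif3h, and in controls from 70.1 ± 1.2 CPM for Eif3f to 143.7 ± 6.38 CPM for Eif3i (SD, n = 3 each). In MCKO the order was led by Eif3h, followed by Eif3k and Eif3c, whose levels of 148.2 ± 7.37 and 147.9 ± 2.27 CPM differed by less than their SDs. In controls Eif3c ranked 10 of the 12 at 115.4 ± 2.26 CPM, within the SD of Eif3g at 116 ± 9.39 CPM. These levels depend on the transcript length used, which was that of the longest annotated protein-coding transcript.

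**Figure D3:**
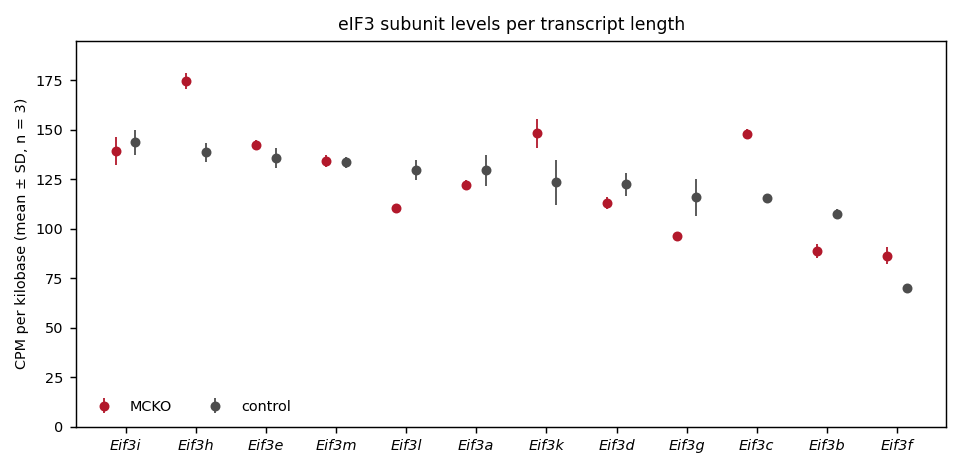
Level of 12 eIF3 subunit genes in CPM per kilobase of transcript (mean and SD, n = 3 per group), ordered by the control level. MCKO points lie above the control points for Eif3h, Eif3k, Eif3c and Eif3f and below them for Eif3l, Eif3g and Eif3b.

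The largest opposite changes were in Eif3j1 and Eif3j2, which encode the loosely bound eIF3j subunit. Eif3j1 has 8 exons on chromosome 2 at 122028546 to 122056598. Eif3j2 is a single exon on chromosome 18 at 43475418 to 43477796. The Eif3j2 transcript of 2379 bases matched Eif3j1 at 2365 bases, with 4 mismatches and 2 gaps, so the division of reads between the pair is uncertain. Exons of Eif3j1 also overlap those of Spg11 on the opposite strand over 1107 bases, and Spg11 averaged 56.7 CPM in MCKO and 47.9 CPM in controls. Eif3j1 held 89.5, 85.2 and 89 CPM in MCKO and 52.7, 54.9 and 55.9 CPM in controls, a log2 fold change of 0.75 (SE 0.046, adjusted p = 1.23e-06). Eif3j2 held 48.8, 47.6 and 51.5 CPM in MCKO and 106, 97.3 and 108 CPM in controls (-1.02, SE 0.055, adjusted p = 5.31e-07). Eif3j2 thus took 35.3, 35.8 and 36.7% of the counts of the pair in MCKO and 66.9, 63.9 and 65.8% in controls. Added together they held 138, 133 and 140.5 CPM in MCKO and 159, 152 and 164 CPM in controls, and the sum was lower in MCKO (-0.15, edgeR adjusted p = 0.0175). The rise of Eif3j1 therefore turned into a fall when the counts of the near-identical gene were added.

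**Figure D4:**
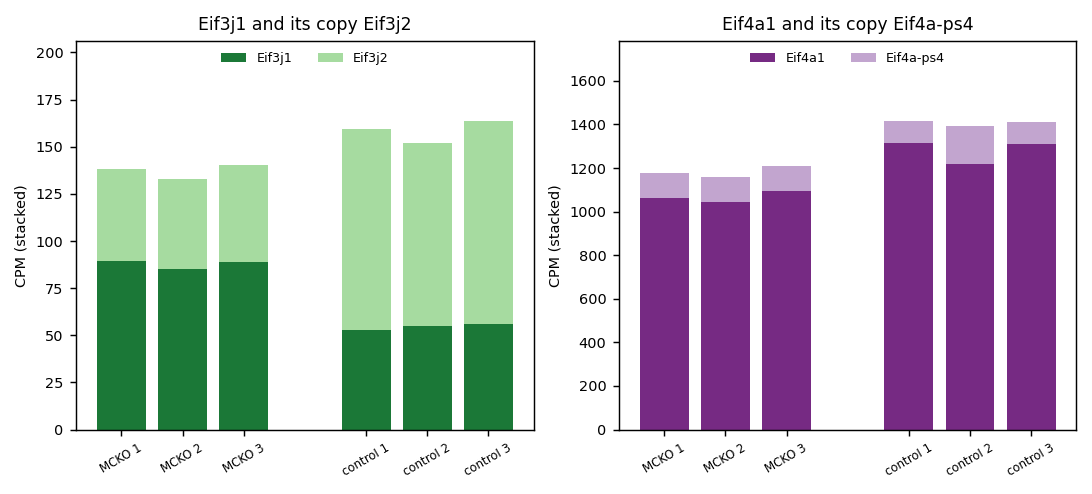
Stacked CPM in each library of Eif3j1 with Eif3j2 (left) and of Eif4a1 with the pseudogene Eif4a-ps4 (right), with MCKO libraries left of control libraries. The split between Eif3j1 and Eif3j2 differs between the groups, while the height of the stack is 133 to 140.5 CPM in MCKO and 152 to 164 CPM in controls.

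Among the factors that scan for the start codon, the 2 genes of eIF1 rose together. Eif1 held 459.8, 461 and 472 CPM in MCKO and 373, 367 and 374 CPM in controls (0.38, SE 0.036, adjusted p = 1.86e-05). Eif1b held 60.9, 61.3 and 65.9 CPM in MCKO and 48.1, 45.8 and 47.6 CPM in controls (0.47, SE 0.051, adjusted p = 4.59e-05). Neither gene's groups overlapped, and Eif1b made up 11.7 to 12.2% of the pair in MCKO and 11.1 to 11.4% in controls. The genes of eIF1A, which works beside eIF1 on the small subunit, did not follow. X-linked Eif1ax fell, with 122, 122 and 124 CPM in MCKO and 153, 149.9 and 162 CPM in controls (-0.28, SE 0.043, adjusted p = 0.000399). Eif1a, its autosomal relative, had a log2 fold change of -0.16 (SE 0.074, adjusted p = 0.0853), and it was called lower with library totals only (adjusted p = 0.0277) and without MCKO replicate 1 (-0.24, adjusted p = 0.0199). Eif1ad was at 0.01 (SE 0.045, adjusted p = 0.795). It was placed in this group by its symbol, for counting, which does not assign it a role in scanning. Exons of Eif1ad overlap those of Banf1 on the opposite strand over 428 bases. Banf1 averaged 130 CPM in MCKO and 146 CPM in controls.

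Of the 5 genes for subunit joining and later steps 2 fell and 3 were not called. Eif5a encodes a factor that carries the modified lysine hypusine and helps ribosomes past difficult stretches. It held 548, 553 and 575 CPM in MCKO and 769.9, 822 and 754 CPM in controls (-0.42, SE 0.047, adjusted p = 5.28e-05). Eif5a2, its much less abundant relative, held 28.1, 27.6 and 27.7 CPM in MCKO and 35.7, 34.4 and 44 CPM in controls (-0.39, SE 0.087, adjusted p = 0.0038). Both genes were lower in every MCKO library. Eif5, which makes eIF2 hydrolyse GTP at the start codon, had 154, 131 and 165 CPM in MCKO and 146, 105 and 114 CPM in controls. These overlapped, and Eif5 was not called (0.36, SE 0.14, adjusted p = 0.0775), but DESeq2 called it (adjusted p = 0.00509), as did the fits without MCKO replicate 2 (adjusted p = 0.0369) or control replicate 1 (adjusted p = 0.00484) and the fit with the replicate block (adjusted p = 0.0139). Eif5b, the GTPase that joins the subunits, was at -0.10 (SE 0.051, adjusted p = 0.131) and was called lower with library totals only (adjusted p = 0.0272) and without control replicate 2 (adjusted p = 0.0161). Exons of Eif5b overlap those of Rev1 on the opposite strand over 1643 bases. Rev1 averaged 47.5 CPM in MCKO and 50.1 CPM in controls. Eif6, which keeps the large subunit from joining early, was at 0.16 (SE 0.094, adjusted p = 0.169).

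**Figure D5:**
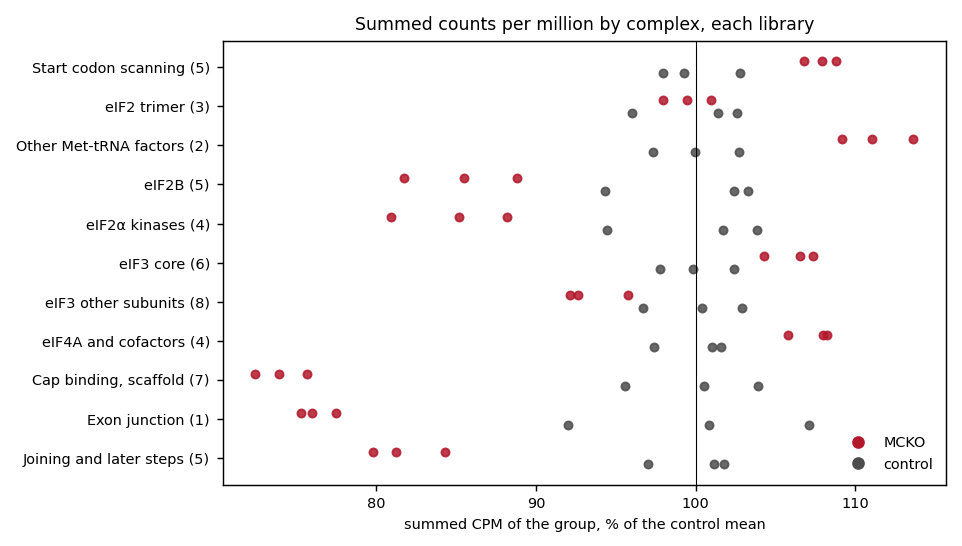
Summed CPM of each group of initiation factor genes in each library, as a percentage of the control mean (number of genes in brackets), with MCKO drawn above control. The cap-binding and scaffold group, whose sum is mostly Eif4g1 and Eif4g2, stands lowest in MCKO, at 72.4 to 75.6%. The exon junction group, Eif4a3 alone, overlaps that range at 75.3 to 77.5%. The eIF2 trimer at 98 to 101% overlaps the controls.

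Promoter sequence was looked at for 3 sets of letters on both strands, in RefSeq windows of 250 bases before to 50 bases after the start (GRCm38.p6), which were found for 41 of the 50 members. The E-box CACGTG, a site of MYC and related factors, was in a window of 10 of the 41 members, against 8.09% of the 27025 genes with a window. It was present in 3 of 10 members called higher, 5 of 16 called lower and 2 of 15 not called. The shorter ACGTG, the core of the HIF site, is contained in the E-box and was in a window of 17 of the 41 members, against 21.8% of all genes. Both shares include the genes with an E-box, which were 10 of the 17 members. TGATGNAA, the composite site of ATF4 and C/EBP factors, was in 1 of the 41, the window of Eif2s3x, against 4.51% of all genes. The 27025 genes were not limited to those tested here, while all members passed a count rule. The shares are therefore not matched for expression level. A gene with several annotated starts has several windows, up to 6 for 1 member and 54 for the 41 members. The stretches around the E-box (in capitals) are given for some members that rose and some that fell, read along the gene's own strand. Those of Eif1b, Eif4e, Eif4g1 and Eif5a lie inside the annotated gene span, so they belong to starts downstream of the outermost one.
Eif1b (chr9:120492560-120492609, plus strand): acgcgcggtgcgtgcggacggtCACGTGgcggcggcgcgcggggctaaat
Eif3f (chr7:108934325-108934374, plus strand): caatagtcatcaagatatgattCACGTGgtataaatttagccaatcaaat
Eif4a1 (chr11:69672585-69672634, minus strand): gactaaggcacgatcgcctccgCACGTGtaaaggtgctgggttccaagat
Eif4e (chr3:138527018-138527067, plus strand): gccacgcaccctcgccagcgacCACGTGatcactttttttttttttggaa
Eif4g1 (chr16:20672651-20672700, plus strand): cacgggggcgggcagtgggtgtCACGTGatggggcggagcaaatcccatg
Eif5a (chr11:69921433-69921482, minus strand): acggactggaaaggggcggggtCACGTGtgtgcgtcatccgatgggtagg
Eif1b and Eif3f were higher in MCKO, and Eif4a1, Eif4e, Eif4g1 and Eif5a were lower. A match is a string of letters, and binding to it was not measured.

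Other translation genes went both ways too. On a list of 45 genes that act with the initiation factors, 13 rose, 15 fell and 17 were not called, 62.2% called against the same 58.4% of all tested genes. Counts within parts of the list rest on 11 genes or fewer. They are to be read beside the 29.3% of all tested genes called higher and the 29.1% called lower. Of 9 genes of eIF2 control, 2 rose, 4 fell and 3 were not called, and the risers had the largest rises of the list. Ppp1r15a, which encodes the stress-induced subunit of the phosphatase that restores eIF2, held 52, 54 and 55.1 CPM in MCKO and 21.9, 24.7 and 23.5 CPM in controls (1.26, SE 0.060, adjusted p = 2.39e-07). Atf4, the transcription factor gene whose mRNA is translated more when eIF2 is phosphorylated, held 315, 318 and 321 CPM in MCKO and 142, 139.5 and 134 CPM in controls (1.26, SE 0.040, adjusted p = 1.93e-08). Dnajc3, which encodes a chaperone known to inhibit PKR and PERK, fell to 62.6, 61.6 and 60.2 CPM in MCKO, against 118, 114 and 124 CPM in controls (-0.89, SE 0.045, adjusted p = 3.91e-07).

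Of 11 genes of cap-dependent control 4 rose and none fell, which is 36.4% called, against 58.4% of all tested genes. Eif4ebp1, the repressor that sequesters eIF4E, held 52.9, 69.1 and 70.8 CPM in MCKO and 29.1, 34 and 22.6 CPM in controls, apart but with a wide spread (1.24, SE 0.18, adjusted p = 0.00161). Of 9 helper factors 6 fell and none rose. Dhx29, a helicase that assists scanning through structured leaders, held 24.8, 25.1 and 23.3 CPM in MCKO and 60.3, 56.7 and 61.6 CPM in controls (-1.22, SE 0.054, adjusted p = 1.59e-07). Abce1, which splits ribosomes for reuse, held 170.1, 172 and 161 CPM in MCKO and 254, 230.4 and 274 CPM in controls (-0.53, SE 0.060, adjusted p = 6.15e-05). Among 10 elongation and release factors 4 rose and 4 fell. Eef2k, the kinase that restrains elongation, held 36.5, 37.3 and 38.7 CPM in MCKO and 21.5, 20.7 and 18.9 CPM in controls (0.94, SE 0.065, adjusted p = 2.46e-06). Eef1a2, the isoform of adult muscle and neurons, held 7.8, 8.52 and 8.46 CPM in MCKO and 20.2, 21.2 and 17.3 CPM in controls (-1.18, SE 0.096, adjusted p = 7.36e-06). Both were apart between the groups. The 3 neural markers summed to 5.33 to 6.57 CPM in MCKO and 20.9 to 26.6 CPM in controls, with Tubb3 called lower, Sox2 called higher and Elavl3 not called, and their part in the fall of Eef1a2 was not tested. Of 6 genes for poly(A)-binding proteins and their Paip partners, 3 rose (Pabpc1, Pabpc4 and Paip2) and 1 fell (Pabpn1).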

How the data were processed

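Aurum RNA and stranded TruSeq mRNA libraries were used, per the labels. The authors deposited estimated counts, all whole numbers, for each Ensembl gene, and the submitters' processing notes name kallisto and mm10; the transcript set and the step that sums transcripts to genes are not stated there. Columns named CKO were matched to MCKO titles by the rest of the name. Symbols, coordinates and lengths came from GENCODE M21 (GRCm38), which named 29936 of 30323 IDs; Gcn1 was matched by an older symbol.

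MCKO was tested against control in edgeR 4.0.16 (R 4.3.3) with filterByExpr defaults, TMM scaling and a robust quasi-likelihood fit on group alone. Tests were 2-sided, with Benjamini-Hochberg adjustment over 14697 genes and calls under 0.05. An SE is the absolute log2 fold change divided by the square root of the F statistic. The fit was tested on simulated data. CPM uses library totals. DESeq2 1.42.0, other scalings and filters, summed copies, a replicate block and left-out libraries were alternatives. Members were mapped to all other transcripts with minimap2 2.31, where at least 95% identity over 80% of either transcript made a near-identical copy; 11 members have one with counts. Chi-square per degree of freedom between libraries of a group was 3.46 to 14.5, more than sampling noise.

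Members and lists were chosen with earlier results of these data known. Values in every library are given for Cdc42, the eIF2 subunits and kinases, up to 3 called members per direction in each complex by size of change, and the 4 largest called changes per direction on the list of other translation genes. Eif2b4, Eif5 and Eif4a-ps4 were added after their values were seen.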

Additional observations from a re-analysis of the deposited data

Results flagged for a closer look

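One signal lay outside the genes compared above. Eif3s6-ps2, a processed pseudogene nearly identical to Eif3e, held 1.2, 1.36 and 1.17 CPM in MCKO (mean 1.24) and 0.259, 0.208 and 0.28 CPM in controls (mean 0.249), from 41, 35 and 28 counts in MCKO and 7, 4 and 9 counts in controls. It drew attention because each MCKO library exceeded each control, while Eif3e itself rose by 0.13 on the log2 scale. The copy amounted to under 1% of the Eif3e level in either group.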

How the results depend on the processing

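Of the 50 initiation factor genes, 34 kept their direction and their side of the threshold under all 13 alternatives that kept that threshold, and 16 changed under at least 1. Calls numbered 30 to 34 (12 to 14 higher, 18 to 21 lower) with 1 library left out, 33 with DESeq2, 35 with library totals as the only scaling (12 higher, 23 lower) and 29 at an adjusted p under 0.01, against 32. Of all tested genes 49.7 to 58.3% were called with 1 library left out, 53.7% with DESeq2, 59.7% with library totals only and 45.3% at an adjusted p under 0.01, where the members' shares were 60 to 68%, 66%, 70% and 58%. Asking for a change of at least 2-fold left 1 member, 0 higher and 1 lower: 1 in the eIF3 genes not grouped as the core and 0 in each other group. It left 5 genes on the list of other translation genes, and Cdc42, at -0.66, no longer passed. That list gave 25 to 31 calls, and Cdc42 -0.70 to -0.62, with 1 library left out. The median log2 fold change of initiation factor genes was -0.04 and moved to -0.099 with library totals only and to -0.075 with near-identical copies summed. With the copies summed, Eif3j1 crossed from 0.75 to -0.15. The median ran from -0.079 to -0.030 with 1 library left out, lowest without control replicate 3, and the cause was not tested. Library totals only shifted the median of all genes by -0.062.

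Some uncalled genes near 0 changed sign. With library totals only, Eif1ad was at -0.047, Eif2ak3 at -0.012, Eif2b5 at -0.039, Eif2d at -0.030 and Eif3i at -0.042. With 1 library left out, log2 fold changes ran from -0.0086 to 0.032 for Eif1ad, -0.033 to 0.011 for Eif2s3x, -0.068 to 0.0081 for Eif3a, -0.024 to 0.056 for Eif3i and -0.073 to 0.049 for Eif4h. Among called genes, Eif3j1 reversed, to -0.15 with its copy added. Eif3j2, the only member called with a 2-fold change, went from -1.02 to -0.15 in the same fit. It was still called lower, but no longer with a 2-fold change.

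For libraries with the same replicate number, the correlations of deviations were -0.0047, 0.022 and -0.13 for numbers 1, 2 and 3. Pairs with different numbers ran from -0.16 to 0.16. Deviations were taken from the mean of each group of 3, so these values cannot tell whether the numbers pair the samples. With the replicate block, 32 members were called (13 higher, 19 lower), 25 genes of the list and 7765 of all genes; Eif3e was not called and Eif5 was. Low counts limit the precision of Eif4e3 and of the pseudogene copies other than Eif4a-ps4, which held 2705 to 3905 counts per library. The division of reads between near-identical transcripts cannot be checked from gene counts.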
